A study of Homo sapiens with 12 samples.

Results

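Sugar metabolism was described here through 37 genes, chosen by name as the transporters and enzymes of glucose uptake, glycolysis, lactate handling, the pyruvate dehydrogenase step and the pentose phosphate pathway. The rule that chose them uses no measured value, but it was set with earlier results of these data known. All 37 had a row among the 19504 named rows of the count table, and 36 of them were among the 12392 genes with enough counts to be tested. HK3, a hexokinase of mature myeloid cells, was left out of the test with 0 to 4 counts in any library. RNA was measured by QuantSeq sequencing, which reads the 3′ end of messenger RNA, in 2 established human lines of acute myeloid leukaemia. In MV4-11 the gene of the receptor kinase FLT3 has an internal tandem duplication, which keeps the receptor active. In OCI-AML3 it has none, and that line is known for its NPM1 mutation. Each line was kept for 24 h with the vehicle DMSO or with 5 nM AC220 (quizartinib), an inhibitor of FLT3, in RPMI medium with serum. The 4 groups are thus MV4-11 with DMSO, MV4-11 with AC220, OCI-AML3 with DMSO and OCI-AML3 with AC220, with 3 libraries each. With 1 line of each genotype, whatever else separates the lines cannot be told apart from FLT3 status.

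Glucose enters cells through facilitative transporters, is trapped by hexokinase, and is split and oxidised by glycolysis to pyruvate. Pyruvate is then reduced to lactate by lactate dehydrogenase and exported, or enters mitochondria through pyruvate dehydrogenase, which pyruvate dehydrogenase kinases switch off. The pentose phosphate pathway branches off at glucose 6-phosphate, giving NADPH in its oxidative arm and ribose for nucleotides in both arms. Proliferating leukaemia cells are known for high rates of both pathways, and FLT3 with an internal tandem duplication is known to raise glucose uptake and lactate output.

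Library totals ran from 10877198 to 16918761 counts. Levels are given as CPM, reads per gene at an equal library size after TMM scaling, as mean ± SD of the 3 libraries of a group (n = 3) or library by library in the order of replicates 1, 2 and 3. QuantSeq counts transcript ends and so does not grow with transcript length. Within each group the libraries were unequal, and MV4-11 AC220 replicate 1 differed most from the others of its group, with a chi-square per degree of freedom of 9.85 and 11.1 against 2.82 to 8.79 for all other pairs. The labels do not say whether replicates were separate cultures, so the spread behind each p-value is that of these libraries and may be technical.

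In MV4-11, most of the pathway fell after AC220 except the pentose phosphate branch, where 4 of 6 genes rose. Of 36 tested genes 25 fell and 6 rose (PFKFB2, PDK2, PGLS, PGD, TKT and TALDO1), by edgeR's quasi-likelihood test at a Benjamini-Hochberg adjusted p under 0.05 over all genes tested. Among all 12392 genes the same test called 58.3%, 26.9% lower and 31.5% higher. Of the genes described here it called 86.1%. Their median log2 fold change was -0.56, beside 0.07 over all genes. A fall of at least 2-fold was seen in 9 of them, and a rise of that size in 2, PFKFB2 and PGD. The share of all genes with changes of that size is not given here. Without MV4-11 AC220 replicate 1 the numbers were again 25 lower and 6 higher.

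Summed over all 37 genes, the pathway held 9749, 9343 and 9289.9 CPM in the MV4-11 DMSO libraries and 6229, 7051 and 7075 CPM after AC220. Every AC220 library lay below every DMSO library, and the ratio of the means was 0.717 (0.747 without AC220 replicate 1). In OCI-AML3 the sums were 9239 ± 459.6 CPM with DMSO and 8614 ± 330.2 CPM with AC220, a ratio of 0.932, and the libraries overlapped. GAPDH weighs most in these sums. It made up on average 28.0% of these genes' counts in MV4-11 with DMSO and 31.0% with AC220, and 30.7% and 28.0% in OCI-AML3. CPM are shares of a library, so a change in all cells and a larger change in some of them, or a change of total RNA per cell, cannot be told apart here.

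**Figure D1:**
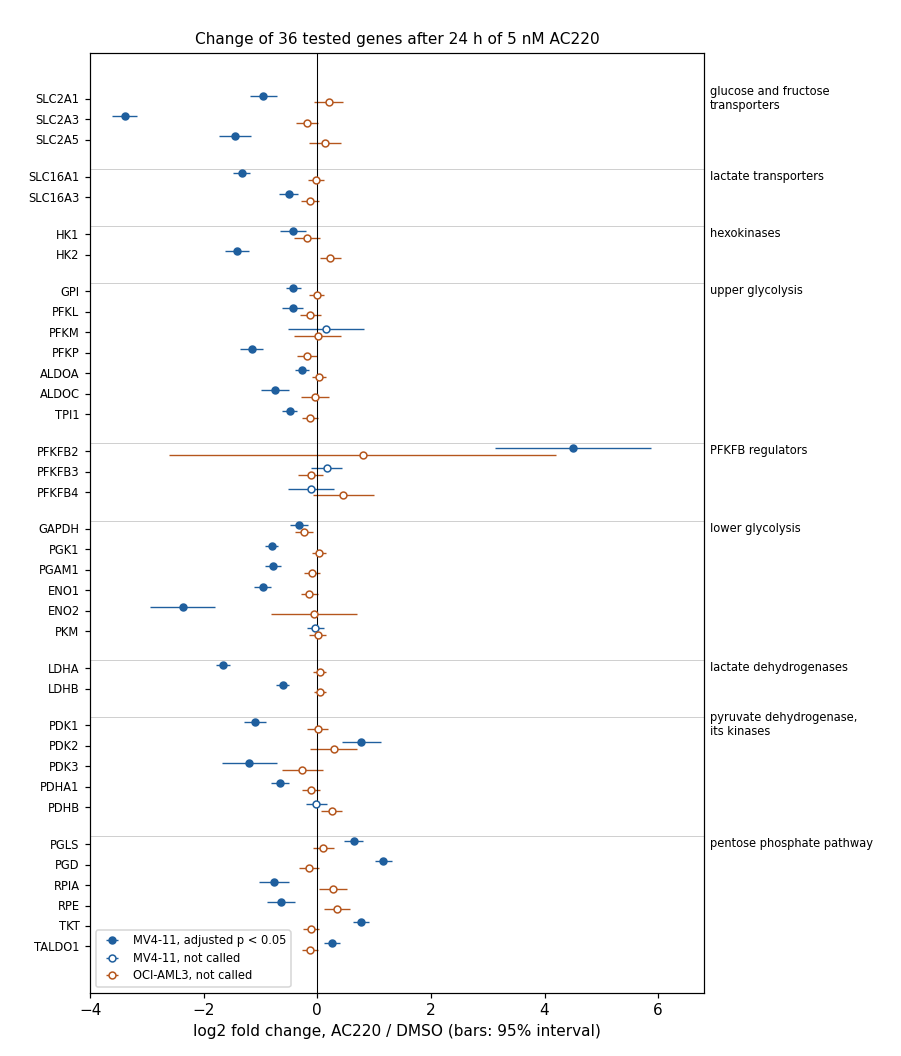
Log2 fold change of each tested gene for AC220 against DMSO, with 95% intervals, in MV4-11 (blue) and OCI-AML3 (orange), grouped by step. Filled points passed the test. In MV4-11 25 points are filled left of 0 and 6 right of it, and in OCI-AML3 none is filled. The wide OCI-AML3 interval of PFKFB2 rests on 1 and 2 counts per group.

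Promoters are shown for 4 genes, LDHA and PGK1, which fell in MV4-11, and PGD and TKT, which rose. They are the 250 bases before an annotated start, 5′ to 3′ on the gene's strand, from RefSeq on GRCh38.p14. Capitals mark the E-box CACGTG, bound by MYC and by the glucose-sensing MLX factors, and the core of the hypoxia response element, ACGTG or GCGTG, on either strand. An E-box contains ACGTG and counts as both.
LDHA at chr11:18394313-18394562, plus strand: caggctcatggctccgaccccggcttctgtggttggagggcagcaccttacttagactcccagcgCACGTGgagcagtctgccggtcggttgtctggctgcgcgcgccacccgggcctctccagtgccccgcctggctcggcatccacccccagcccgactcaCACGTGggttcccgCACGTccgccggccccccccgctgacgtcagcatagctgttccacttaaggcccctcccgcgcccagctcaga
PGK1 at chrX:78103998-78104247, plus strand: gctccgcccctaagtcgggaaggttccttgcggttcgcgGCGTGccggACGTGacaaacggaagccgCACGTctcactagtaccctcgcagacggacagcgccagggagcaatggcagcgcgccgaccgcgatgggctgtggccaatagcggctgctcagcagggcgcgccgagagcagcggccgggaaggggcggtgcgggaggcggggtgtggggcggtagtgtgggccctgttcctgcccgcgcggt
PGD at chr1:10398814-10399063, plus strand: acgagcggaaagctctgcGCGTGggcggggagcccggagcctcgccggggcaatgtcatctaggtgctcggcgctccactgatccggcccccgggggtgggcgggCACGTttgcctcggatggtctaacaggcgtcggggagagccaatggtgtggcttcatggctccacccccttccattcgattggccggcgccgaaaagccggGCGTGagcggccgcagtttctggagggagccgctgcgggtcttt
TKT at chr3:53256023-53256272, minus strand: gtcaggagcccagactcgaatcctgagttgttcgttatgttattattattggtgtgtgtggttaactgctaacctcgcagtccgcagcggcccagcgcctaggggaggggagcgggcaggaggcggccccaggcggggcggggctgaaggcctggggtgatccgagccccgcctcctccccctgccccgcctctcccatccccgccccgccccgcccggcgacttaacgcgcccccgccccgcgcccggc
The printed LDHA window holds E-boxes 185 and 87 bases before the start and a further hypoxia core at 73. PGK1 holds hypoxia cores 211, 202 and 183 bases before the start and no E-box, PGD holds them at 232, 145 and 44, and TKT holds neither motif. Another LDHA window, not printed, holds 1 hypoxia core, 123 bases before its start, and no E-box. The 4 genes are examples and do not stand for their direction of change. Among genes that fell, SLC2A1, SLC2A5, PGAM1, LDHB and RPE hold neither motif. Promoter entries were matched for 34 of the 37 genes, in 62 windows, with none for SLC2A3, SLC16A1 and PFKFB2. An E-box stood in 8 of the 62 windows (12.9%), beside 6.34% of all 35116 promoters of that length. By direction in MV4-11, it stood in 5 of 42 windows (11.9%) of genes that fell and 1 of 7 (14.3%) of genes that rose. For genes not called or not tested it stood in 2 of 13 (15.4%). The hypoxia core stood in 51.6% of the windows of these genes and 43.2% of all promoters. It stood in 25 of 42 windows (59.5%) of genes that fell, 2 of 7 (28.6%) of genes that rose and 5 of 13 (38.5%) of the rest. Some genes have several windows, and windows of 1 gene can overlap, so the shares are descriptions of sequence with no test.

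The hexose transporters SLC2A1, SLC2A3 and SLC2A5 fell in MV4-11, and their summed level after AC220 was 0.242 of that with DMSO. SLC2A3 (GLUT3), a high-affinity glucose transporter, stood at 90.9, 92.1 and 94.9 CPM with DMSO and at 9.72, 9.22 and 7.45 CPM with AC220. Its groups were far apart, with a 10.5-fold fall (log2 fold change -3.39, SE 0.105, adjusted p = 2.56e-21). In OCI-AML3 it stood at 32.7, 37.0 and 38.7 CPM with DMSO and 34.01, 30.2 and 31.8 CPM with AC220, and these ranges overlapped. SLC2A1 (GLUT1), the basal glucose transporter of most cells, fell from 31.7 ± 2.07 to 16.4 ± 1.22 CPM in MV4-11. SLC2A5 (GLUT5), which carries fructose, fell from 39.3 ± 1.21 to 14.4 ± 4.36 CPM. SLC2A14, a close paralog of SLC2A3 outside the 37 genes, rose from 4.73 ± 0.397 to 18.1 ± 1.34 CPM, and the counting could have divided reads between the 2 genes. Their sum still fell, from 97.4 ± 2.22 to 26.9 ± 1.94 CPM. Of the other transporters of this family, named after their values were seen, SLC2A6 rose from 6.78 ± 0.637 to 10.1 ± 2.44 CPM (adjusted p = 0.0165) and SLC2A12 fell from 1.59 ± 0.0230 to 0.748 ± 0.353 CPM (adjusted p = 0.0284). SLC2A10, also called higher, had no counts with DMSO and at most 0.279 CPM with AC220.

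The monocarboxylate transporters, which carry lactate with a proton, both fell. SLC16A1 (MCT1) stood at 115.0, 116 and 118 CPM with DMSO and 47.3, 41.4 and 49.9 CPM with AC220 in MV4-11, a 2.52-fold fall without overlap (log2 fold change -1.33, SE 0.0759, adjusted p = 3.48e-15). SLC16A3 (MCT4), the exporter typical of glycolytic cells, fell 1.42-fold, from 76.6 ± 2.60 to 54.1 ± 4.12 CPM. BSG, the chaperone that brings both transporters to the membrane, did not pass the test (log2 fold change -0.04, adjusted p = 0.614).

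Hexokinases phosphorylate glucose. HK2, the inducible form, stood at 36.5, 33.9 and 40.6 CPM with DMSO and 14.1, 13.1 and 14.5 CPM with AC220 in MV4-11. The AC220 libraries lay close together and below all DMSO libraries (log2 fold change -1.41, SE 0.104, adjusted p = 1.25e-12). HK1, the constitutive form, fell 1.34-fold, from 31.7 ± 2.81 to 23.7 ± 3.14 CPM. The unlike falls moved the share of HK2 in the 3 hexokinases from 51.2 to 57.8% across DMSO libraries to 32.4 to 39.8% across AC220 libraries.

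In upper glycolysis 6 of 7 genes fell. PFKP, the platelet-type subunit of phosphofructokinase, the committing enzyme of glycolysis, stood at 53.7, 52.0 and 54.5 CPM with DMSO and 20.1, 23.7 and 28.4 CPM with AC220. It fell 2.23-fold (log2 fold change -1.16, SE 0.0975, adjusted p = 2.57e-11), with no overlap of the groups. The liver-type subunit PFKL fell less, from 92.5 ± 7.87 to 68.6 ± 4.80 CPM, and the muscle-type subunit PFKM, at 1.18 ± 0.124 and 1.30 ± 0.401 CPM, did not pass the test (adjusted p = 0.709). ALDOA, the main aldolase by counts, stood at 632, 612 and 599.9 CPM with DMSO and 499.0, 506 and 529 CPM with AC220. This was a 1.20-fold fall, small but without overlap (log2 fold change -0.27, SE 0.0597, adjusted p = 0.000353). ALDOC, a second aldolase, fell 1.68-fold. GPI, which turns glucose 6-phosphate into fructose 6-phosphate, fell 1.34-fold, and TPI1, which interconverts the triose phosphates, 1.40-fold.

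The PFKFB enzymes make and remove fructose 2,6-bisphosphate, the strongest activator of phosphofructokinase. PFKFB3, the form with the highest ratio of kinase to phosphatase activity, stood at 9.74, 8.60 and 9.39 CPM with DMSO and 10.2, 11.2 and 9.72 CPM with AC220 in MV4-11. These groups overlapped, and the test did not call a difference (log2 fold change 0.16, 95% interval -0.11 to 0.43, adjusted p = 0.298). PFKFB4 did not pass it either, at 7.18 ± 0.856 and 6.65 ± 0.401 CPM. PFKFB2, the heart-type form, rose from 0, 0.0642 and 0.193 CPM to 1.67, 1.49 and 3.09 CPM. All AC220 libraries lay above all DMSO libraries (log2 fold change 4.499, SE 0.673, adjusted p = 1.42e-06), but the DMSO level rests on 4 counts in 3 libraries and the AC220 level on 72.

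In lower glycolysis 5 of 6 genes fell. PGK1, phosphoglycerate kinase, stood at 330.0, 313 and 314 CPM with DMSO and 182, 188.5 and 177 CPM with AC220 in MV4-11. It fell 1.75-fold with a wide gap between the groups (log2 fold change -0.81, SE 0.0590, adjusted p = 1.12e-12). GAPDH, which makes the NADH of glycolysis and is often used as a reference gene, stood at 2745, 2626 and 2573 CPM with DMSO and 1776, 2228 and 2323 CPM with AC220. Replicate 1 was the lowest AC220 library, and the groups did not overlap (log2 fold change -0.33, SE 0.0766, adjusted p = 0.000626). PGAM1, phosphoglycerate mutase, fell 1.71-fold and the enolase ENO1 1.94-fold, the latter from 1878 ± 101 to 966 ± 49.5 CPM. ENO2, the neuronal enolase, was rare but fell 5.16-fold, from 8.60 ± 0.130 to 1.66 ± 0.805 CPM. PKM, pyruvate kinase, did not pass the test, with 268 ± 1.94 CPM before and 261.5 ± 39.7 CPM after AC220 (log2 fold change -0.04, 95% interval -0.19 to 0.12, adjusted p = 0.696).

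**Figure D2:**
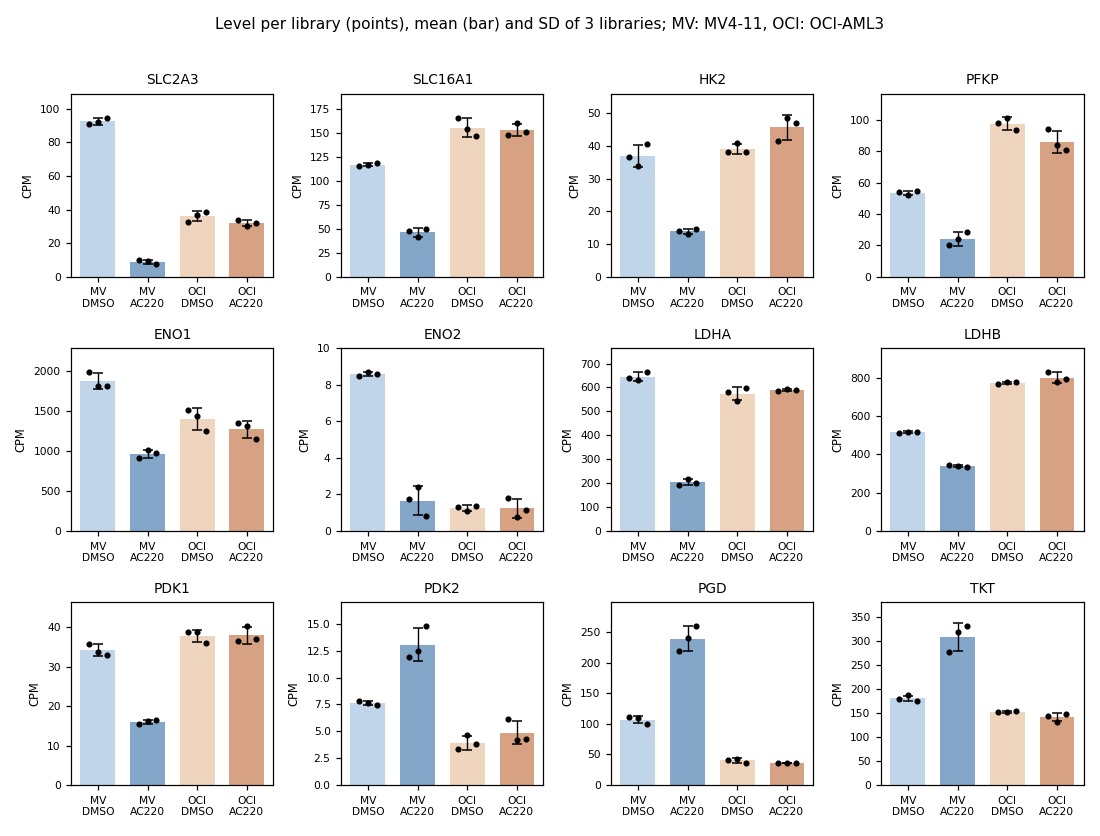
CPM of 12 genes in the 12 libraries (points), with the mean (bar) and SD of 3 libraries, by line (MV for MV4-11, OCI for OCI-AML3) and treatment, each panel on its own linear axis from 0. In MV4-11 the AC220 points of PDK2, PGD and TKT lie above the DMSO points and those of the other 9 genes below. In OCI-AML3 the AC220 and DMSO points overlap or nearly meet.

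Lactate dehydrogenase is a tetramer of LDHA and LDHB subunits, of which LDHA favours lactate formation. LDHA stood at 638, 632 and 666 CPM with DMSO and 193, 217 and 199 CPM with AC220 in MV4-11, and at 580.2, 544.5 and 596 CPM against 587, 592 and 588 CPM in OCI-AML3. In MV4-11 the 3.18-fold fall left no overlap (log2 fold change -1.67, SE 0.0613, adjusted p = 1.02e-19), while the OCI-AML3 ranges overlapped. LDHB stood at 511, 519 and 517 CPM with DMSO and 342, 338 and 334 CPM with AC220 in MV4-11. This was a smaller fall of 1.53-fold, with little spread between libraries (log2 fold change -0.61, SE 0.0555, adjusted p = 1.32e-10). LDHA made up 54.9 to 56.3% of the summed counts of both subunits with DMSO and 36.05 to 39.1% with AC220.

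At the entry to mitochondria, 3 of 5 genes fell and 1 rose. PDK1, a pyruvate dehydrogenase kinase induced by hypoxia, stood at 35.9, 33.7 and 32.9 CPM with DMSO and 15.5, 16.1 and 16.4 CPM with AC220 in MV4-11. It fell 2.13-fold without overlap (log2 fold change -1.09, SE 0.0968, adjusted p = 7.10e-11). PDK3 fell 2.29-fold, from 4.27 ± 0.531 to 1.84 ± 0.248 CPM. PDK2, the most widely expressed of these kinases in human tissues, stood at 7.83, 7.64 and 7.46 CPM with DMSO and 11.9, 12.5 and 14.8 CPM with AC220, and thus rose (log2 fold change 0.77, SE 0.169, adjusted p = 0.000265). PDHA1, the subunit of pyruvate dehydrogenase that they phosphorylate, stood at 109.6, 112.5 and 112.3 CPM with DMSO and 69.6, 67.9 and 74.7 CPM with AC220. Its 3 AC220 libraries lay below all DMSO libraries (log2 fold change -0.66, SE 0.0760, adjusted p = 1.55e-08). PDHB, its partner subunit, stood at 46.8 ± 2.16 and 46.1 ± 5.49 CPM and did not pass the test (95% interval of the log2 fold change -0.21 to 0.17).

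The pentose phosphate genes moved in both directions, with 4 up and 2 down of 6 in MV4-11. PGD, 6-phosphogluconate dehydrogenase, which makes NADPH, stood at 111.5, 109.0 and 100.0 CPM with DMSO and 218, 239.6 and 259.9 CPM with AC220. It rose 2.24-fold with a wide gap between the groups (log2 fold change 1.16, SE 0.0757, adjusted p = 7.91e-14). PGLS, the lactonase that acts just before PGD in the oxidative arm, rose 1.56-fold, from 89.1 ± 4.68 to 138.7 ± 9.95 CPM. In the non-oxidative arm, TKT (transketolase) rose 1.71-fold, from 181 ± 5.41 to 309 ± 29.1 CPM (adjusted p = 6.64e-11). TALDO1 (transaldolase) stood at 295, 273 and 266 CPM with DMSO and 319.6, 331 and 347 CPM with AC220. These groups did not overlap but came close (log2 fold change 0.26, SE 0.0689, adjusted p = 0.00198), and the call was lost without MV4-11 AC220 replicate 3 (0.18, adjusted p = 0.0546). RPIA and RPE, the isomerase and epimerase that interconvert the pentose phosphates, fell 1.70-fold and 1.56-fold. RPIA went from 26.9 ± 0.916 to 15.9 ± 0.552 CPM and RPE from 29.6 ± 2.09 to 18.9 ± 2.21 CPM. Summed over the 6 genes, AC220 libraries held 1.48 times the DMSO level, against 0.681 times for lower glycolysis and 0.466 times for the lactate dehydrogenases.

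The members of a family did not change alike in MV4-11, so that its mix of isoforms shifted. SLC2A3 made up 56.5 to 56.7% of the summed counts of SLC2A1, SLC2A3 and SLC2A5 in MV4-11 DMSO libraries and 21.2 to 24.1% in AC220 libraries. PFKP went from 34.4 to 38.1% of phosphofructokinase counts down to 23.7 to 28.2%, and SLC16A1 from 59.3 to 61.5% of the lactate transporter counts down to 42.2 to 48.9%. Among the 3 kinases of pyruvate dehydrogenase PDK2 went from 16.5 to 16.8% up to 40.4 to 44.9%. In OCI-AML3 the LDHA share was 41.2 to 43.3% with DMSO and 41.4 to 43.2% with AC220. There the HK2 share did not overlap between treatments (54.6 to 58.0% with DMSO and 58.8 to 65.6% with AC220), nor did the SLC2A3 share (48.6 to 51.4% and 41.3 to 47.7%). These shares were not tested, and with 3 against 3 libraries a two-sided exact permutation test cannot go below p = 0.1.

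**Figure D3:**
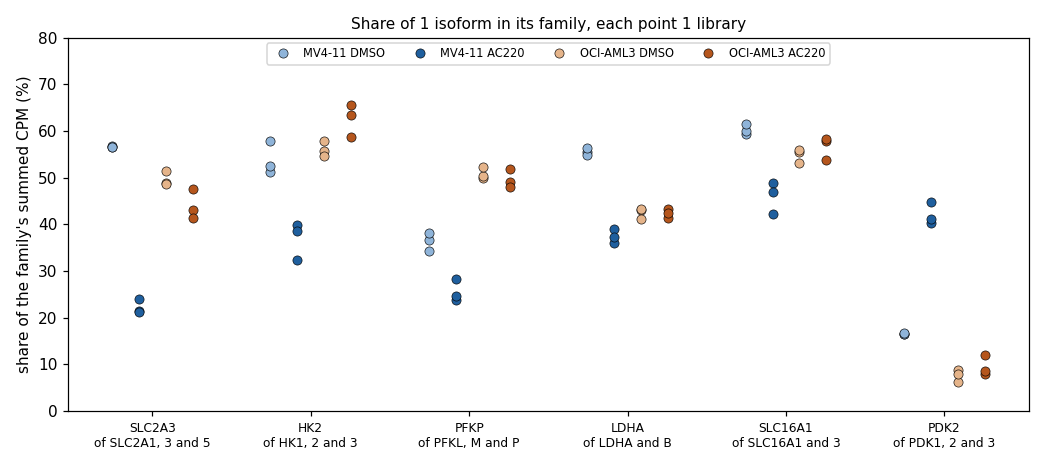
Share of 1 named isoform in the summed CPM of its family, in percent, each point 1 library, by line and treatment. In MV4-11 the AC220 points of SLC2A3, HK2, PFKP, LDHA and SLC16A1 lie below the DMSO points and those of PDK2 above, while the OCI-AML3 points of LDHA, PFKP and SLC16A1 overlap between treatments.

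In OCI-AML3, the line without the duplication, none of the 36 genes passed the test after AC220, where 3.95% of all genes tested did. At an unadjusted p under 0.05 edgeR's quasi-likelihood test gave 6 of them (HK2, PFKP, GAPDH, PDHB, RPIA and RPE), and DESeq2 called 1, GAPDH. The share of all genes at that unadjusted threshold is not given here, so the 6 have no background to be read against. The smallest adjusted p was 0.0647, of RPE, which stood at 28.5, 30.3 and 34.4 CPM with DMSO and 33.7, 39.2 and 46.1 CPM with AC220. Its groups overlapped. GAPDH stood at 3005, 2859 and 2654 CPM with DMSO and 2534, 2412 and 2283 CPM with AC220, lower in all 3 AC220 libraries (log2 fold change -0.24, SE 0.0765, adjusted p = 0.0708). HK2 stood at 39.1 ± 1.48 CPM with DMSO and 45.8 ± 3.78 CPM with AC220 (log2 fold change 0.23, adjusted p = 0.147). For 35 of the 36 genes the 95% interval of the log2 fold change lay within 2-fold in either direction, the exception being PFKFB2 with 1 count with DMSO and 2 with AC220. The median log2 fold change was -0.017, beside -0.0024 over all genes. Calls here depended on single libraries. Without MV4-11 AC220 replicate 1, a library of the other line that shares the fit, GAPDH, PDHB and RPE passed (3 genes), and without OCI-AML3 DMSO replicate 3 GAPDH and RPE did. Without OCI-AML3 AC220 replicate 1 RPIA and RPE passed, and without MV4-11 AC220 replicate 3 GAPDH alone.

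Whether the response differed between the lines was tested as an interaction. In all, 22 of 36 genes fell more, or rose less, in MV4-11 than in OCI-AML3, and 4 did the opposite (PGLS, PGD, TKT and TALDO1). Among all genes the same test called 46.7%, with 23.7% lower and 23.0% higher. Expressed on the log2 scale, the difference was -3.21 for SLC2A3 (SE 0.141, adjusted p = 2.35e-17) and -2.31 for ENO2 (SE 0.472, adjusted p = 0.000183). For LDHA it was -1.71 (SE 0.0847, adjusted p = 3.33e-16) and for HK2 -1.64 (SE 0.139, adjusted p = 6.31e-11). For PGD it was 1.31 (SE 0.113, adjusted p = 9.02e-11) and for TKT 0.89 (SE 0.0970, adjusted p = 1.05e-08). Of the genes that fell in MV4-11, HK1, PFKL and GAPDH were not shown to differ between the lines. GAPDH had -0.33 in MV4-11 and -0.24 in OCI-AML3 (difference -0.09, 95% interval -0.31 to 0.13, adjusted p = 0.515). PFKL lay just above the threshold (difference -0.31, adjusted p = 0.05 after rounding), and it passed without MV4-11 DMSO replicate 3 (0.0436), MV4-11 AC220 replicate 2 (0.0464), replicate 2 of OCI-AML3 with DMSO (0.0408) or replicate 3 of OCI-AML3 with AC220 (0.00689), and with no filter on low counts (0.0128). PDK2 and PFKFB2, which rose in MV4-11, were not called as different either (adjusted p = 0.139 and 0.285). When 1 library was left out, the difference passed for PDK2 without OCI-AML3 AC220 replicate 1 (0.0467), for PFKFB4 without OCI-AML3 DMSO replicate 3 (0.0402) and for PDHB without MV4-11 AC220 replicate 1 (0.0100). This comparison and those in each line use the same libraries, so their calls are not independent.

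With DMSO alone the lines differed in 24 of the 36 genes, 13 higher and 11 lower in MV4-11. This share (66.7%) lay near that of all genes tested (65.5%, of which 32.1% higher and 33.4% lower in MV4-11), and the median log2 difference was -0.0035, beside 0.0054 over all genes. Of the hexose transporters, SLC2A1 was 2.59-fold, SLC2A3 2.56-fold and SLC2A5 1.61-fold higher in MV4-11. Lactate transporters were lower, SLC16A1 at 116 ± 1.59 against 155 ± 9.82 CPM and SLC16A3 at 76.6 ± 2.60 against 128 ± 11.3 CPM. The enzymes of the oxidative pentose phosphate arm were higher in MV4-11, with PGD at 107 ± 6.07 against 40.2 ± 3.64 CPM and PGLS at 89.1 ± 4.68 against 36.9 ± 3.59 CPM. GPI was 2.08-fold and ALDOA 1.95-fold higher, and ENO1 1.34-fold. The enolase ENO2 was 6.82-fold higher (log2 difference 2.77, SE 0.284, adjusted p = 1.03e-09). PFKM, at 1.18 ± 0.124 against 7.63 ± 0.517 CPM, was 6.42-fold lower (log2 difference -2.68, SE 0.249, adjusted p = 1.33e-10).

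Regulators of phosphofructokinase differed in their mix. PFKFB3 was 3.39-fold lower and PFKFB4 3.67-fold higher in MV4-11, so that PFKFB3 made up 54.7 to 57.3% of the PFKFB counts there and 91.3 to 95.7% in OCI-AML3. Also lower in MV4-11 were PFKP (1.83-fold), PGK1 (1.28-fold), PGAM1 (1.30-fold), PKM (1.64-fold) and PDK3 (2.30-fold), as was LDHB (log2 difference -0.59). PDK2 (1.94-fold), TKT (1.18-fold) and LDHA (1.12-fold) were higher. The call on LDHA was lost without MV4-11 DMSO replicate 3 (adjusted p = 0.0688). TPI1, lower by 0.16 on the log2 scale, had overlapping groups and lost its call without MV4-11 DMSO replicate 2 or 3, MV4-11 AC220 replicate 2 or OCI-AML3 DMSO replicate 1 or 2 (adjusted p from 0.0560 to 0.269). Both hexokinases, PFKL, ALDOC, PFKFB2, GAPDH, PDK1, PDHA1, PDHB, RPIA, RPE and TALDO1 did not pass the test. After AC220 the MV4-11 level of SLC2A3 (8.80 ± 1.20 CPM) and of LDHA (203 ± 12.3 CPM) lay below the OCI-AML3 DMSO level of each (36.1 ± 3.07 and 573.5 ± 26.3 CPM).

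**Figure D4:**
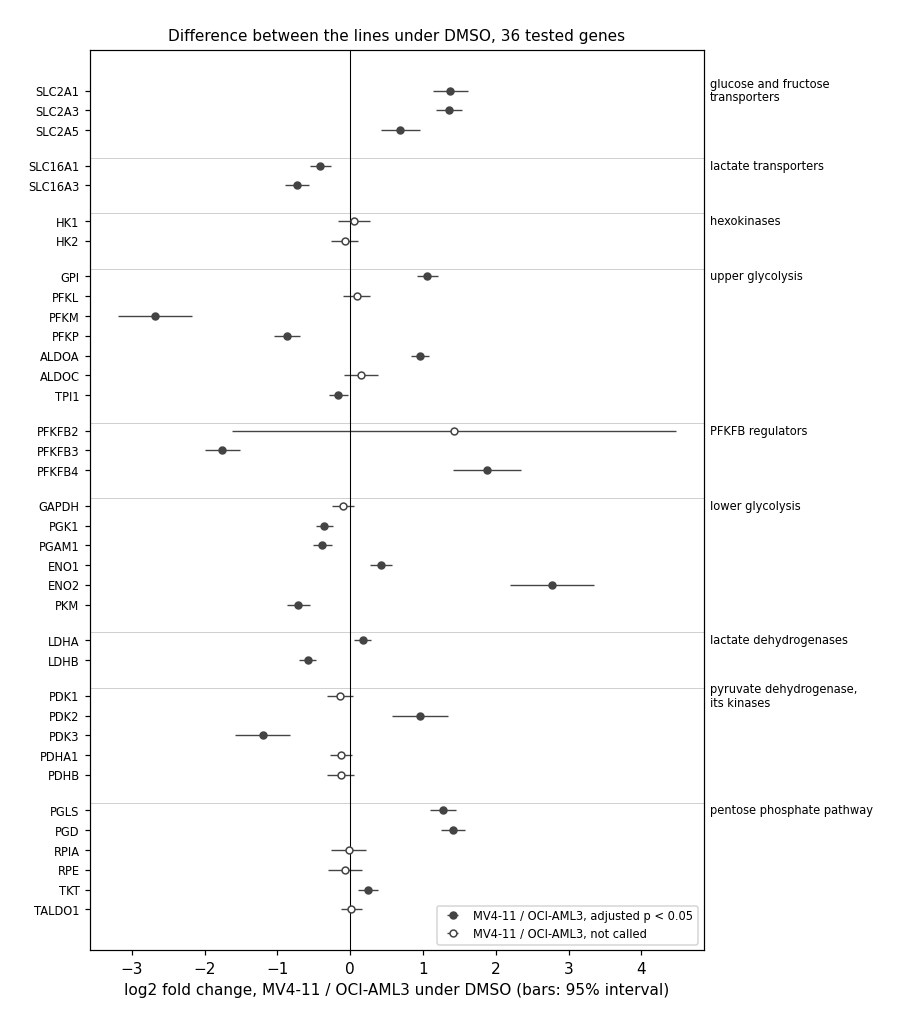
Log2 difference of each tested gene between MV4-11 and OCI-AML3 with DMSO, with 95% intervals, grouped by step, filled where the test called it. Of the 24 filled points 13 lie right of 0 (higher in MV4-11) and 11 left of it, with ENO2 and PFKM at the ends.

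Other genes of the pathway, 29 tested of 39 listed, were mixed in MV4-11 after AC220, with 8 up and 11 down and a median log2 fold change of -0.22, beside 0.07 over all genes. The share called, 65.5%, lay near the 58.3% of all genes. PRPS1, which turns ribose 5-phosphate into the precursor of nucleotides, fell by 1.04 on the log2 scale (adjusted p = 5.53e-11) and PGP, a phosphoglycolate phosphatase that clears by-products of glycolysis, by 0.91 (adjusted p = 6.29e-11). Among those that rose were SLC2A14 (1.94), RBKS, ribokinase (1.26), and TKTL1, a transketolase-like protein (1.63). In OCI-AML3 2 rose, ADPGK, an ADP-dependent glucokinase (0.45), and LDHC, the testis lactate dehydrogenase (1.22), which are named here after their values were seen. They were 6.9% of the tested genes of this list, beside 3.95% of all genes.

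Among 11 tested regulators of the pathway, 3 rose and 2 fell in MV4-11 (median -0.12), or 45.5% beside 58.3% of all genes. Of the glucose-sensing factors that bind E-boxes, MLXIP (MondoA) rose from 46.6 ± 0.829 to 100.3 ± 14.0 CPM, and MLXIPL (ChREBP) and their partner MLX fell. MLX went from 36.7 ± 1.63 to 20.0 ± 2.09 CPM (log2 fold change -0.88, adjusted p = 4.08e-09). ARNT, the shared subunit of hypoxia-inducible factors, and ARRDC4, an arrestin that restrains glucose uptake, rose by 0.91 and 1.21. HIF1A did not pass the test (log2 fold change -0.15, adjusted p = 0.293). MYC, singled out after its values were seen, stood at 35.9, 16.6 and 15.7 CPM with AC220, all below the DMSO libraries (37.8, 39.7 and 52.3 CPM) but with replicate 1 close to them, and it did not pass the test (adjusted p = 0.0645). In OCI-AML3 2 regulators rose, ARNT (0.64) and PRKAA1, a catalytic subunit of AMP-activated kinase (0.52), or 18.2% beside 3.95% of all genes. MYC was not among those called there. It stood at 16.2, 17.1 and 27.3 CPM with DMSO and 33.8, 51.1 and 61.0 CPM with AC220, higher without overlap. The direction was opposite to MV4-11, but MYC was called in neither line. Its difference between the lines and the share of all genes without overlap are not given here.

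Hypoxia-inducible genes outside the pathway, which share regulators with many glycolytic genes, mostly fell in MV4-11. Of 16 tested 10 fell and 1 rose, with a median log2 fold change of -0.73, beside 0.07 over all genes. The test called 68.8% of this list and 58.3% of all genes. DDIT4, an inhibitor of mTORC1, fell from 86.7 ± 4.54 to 6.18 ± 1.07 CPM and NDRG1, a stress-responsive gene, from 159.5 ± 9.64 to 22.2 ± 2.55 CPM. MIF, a cytokine, fell from 461.6 ± 10.0 to 217 ± 4.43 CPM, and VEGFA, the angiogenic factor named after its values were seen, from 41.2 ± 4.92 to 8.53 ± 1.68 CPM. BNIP3L, a mitophagy receptor, rose from 54.8 ± 4.65 to 110.9 ± 4.02 CPM. In OCI-AML3 none of the 16 was called, with 4 at an unadjusted p under 0.05 by edgeR's quasi-likelihood test. For these 4 too, the share of all genes at that unadjusted threshold is not given. The role of these lists in the changes of the pathway was not tested.

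Both lines carried myeloid markers. The summed level of 7 of them was 258 to 278 CPM in MV4-11 DMSO libraries, 457 to 483 CPM after AC220, and 456 to 508 CPM across OCI-AML3 libraries. Among them LYZ (log2 fold change 1.46), CSF3R (1.45), PTPRC (0.88) and CD33 (0.24) rose with AC220 in MV4-11, and SPI1, MPO and ANPEP did not pass the test. Myeloid markers moved with treatment in the same line as the pathway, and their part in the result was not tested. The marker lists of T cells, B cells and epithelial cells each summed to at most 1.54 CPM in any library, with CD3E, EPCAM and KRT19 at 0 in all libraries. Stromal markers reached 8.63 CPM in OCI-AML3, nearly all COL1A2, with COL3A1 at 0.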

How the data were processed

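RNA of 12 libraries (2 cell lines, DMSO or AC220, 3 libraries per group) was sequenced with QuantSeq 3′ libraries, per the labels' protocols. Per the submitters' processing notes, the tools included HISAT2 2.0.4, cutadapt 1.9.1, featureCounts, Subread 2.0.0 and limma 3.42.2, with build hg19. Annotation, strand setting and treatment of reads with several matches are not given in the sources used here, so paralogs and overlapping genes may share reads. Raw counts by symbol were deposited (19505 rows). A row without a symbol, 0.00343% to 0.00503% of each library, stayed out of totals and tests. A deposited table of normalised log2 values of 11075 genes, with the same set of values in every library, served only as an alternative.

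The filterByExpr rule kept 12392 genes, and libraries were scaled by TMM. edgeR 4.0.16 (R 4.3.3) fitted a quasi-likelihood model with robust estimation and a mean per group to all 12 libraries, with 8 residual degrees of freedom and a common biological coefficient of variation of 8.28%. AC220 was compared with DMSO within each line, the effects were compared between lines, and MV4-11 was set against OCI-AML3 with DMSO, each with Benjamini-Hochberg adjustment over all genes tested and a threshold of 0.05. SE is the log2 fold change divided by the square root of F. Where a gene has no counts, 3 counts, 0.174 to 0.279 CPM in a library, are the limit that a count of 0 allows, and this covers counting error only. No 2 libraries held identical values, and replicates differed by more than counting noise, so each was counted once.

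The genes and lists were chosen with earlier results of these data known. All 37 genes are accounted for. Values per library are given for the gene of each step with the smallest adjusted p in MV4-11 and that with the highest mean CPM, and for others where a result turns on them. In the other lists the 3 genes with the smallest adjusted p and up to 3 that passed against the majority are named. BSG, HIF1A, MYC, ARNT, ARRDC4 and PRKAA1 were named after their values were seen. Replicate numbers were not taken to pair the libraries. Correlations of deviations in same-numbered libraries ran from -0.12 to -0.0803 in MV4-11 and from 0.0494 to 0.18 in OCI-AML3. For libraries of unlike number they ran from -0.0191 to 0.113 and from -0.135 to 0.061. These values are low and were not tested. Alternatives were median-ratio scaling, no filter, a stricter filter (1 CPM in 3 libraries), DESeq2 1.42.0, limma-voom (limma 3.58.1), limma on the deposited values, a replicate block, the compared libraries alone and leaving out each library. The procedure was tested on simulated counts. TXNIP was not analysed here.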

Additional observations from a re-analysis of the deposited data

Results flagged for a closer look

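For 26 genes the AC220 effect in MV4-11 differed from that in OCI-AML3 by edgeR's interaction test, 22 lower and 4 higher in MV4-11. Among the transporters the difference of the log2 fold changes was called for SLC2A3 (-3.21), SLC2A5 (-1.58), SLC2A1 (-1.15), SLC16A1 (-1.31) and SLC16A3 (-0.38). In hexokinase and upper glycolysis it was called for HK2 (-1.64), PFKP (-0.97), ALDOC (-0.71), GPI (-0.41), TPI1 (-0.36) and ALDOA (-0.29). In lower glycolysis it was called for ENO2 (-2.31), PGK1 (-0.84), ENO1 (-0.82) and PGAM1 (-0.68). Around pyruvate it was called for LDHA (-1.71), PDK1 (-1.10), PDK3 (-0.93), LDHB (-0.66) and PDHA1 (-0.55). The pentose phosphate genes with a called difference were PGD (1.31), TKT (0.89), PGLS (0.53), TALDO1 (0.39), RPIA (-1.04) and RPE (-0.996). The adjusted p ran from 2.35e-17 for SLC2A3 to 0.0109 for PDK3. Each of the 26 genes passed the test of AC220 against DMSO in MV4-11, and none did in OCI-AML3. No group held more than 3 libraries, so single libraries were not tested as outliers.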

How the results depend on the processing

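Across 20 alternatives per comparison (19 for the difference, which was not fitted on the compared libraries alone) no called log2 fold change of these genes changed sign. In MV4-11 30 or 31 of 36 genes were called, for the difference 26 or 27, and for the lines with DMSO 22 to 24. In OCI-AML3 no gene was called by the reported test, 2 with no filter on low counts, 1 by DESeq2, 1 in the compared libraries alone, and 0 to 3 when each library was left out in turn. The cause was not tested. The ratio of the summed CPM after AC220 to that with DMSO ran from 0.669 to 0.747 in MV4-11 and from 0.908 to 0.955 in OCI-AML3. With the replicate block, though the numbers were not taken to pair the libraries, 31, 0, 27 and 24 genes were called in MV4-11, in OCI-AML3, for the difference and for the lines with DMSO. The gene gained for the difference was PFKL (adjusted p = 0.0465).

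Single genes changed their call in few alternatives. On the deposited normalised values the difference was lost for TPI1 (adjusted p = 0.0588) and gained for GAPDH (0.0109), and TPI1 lost its call between the lines with DMSO (0.294). PFKFB2 gained the difference by limma-voom (0.00789). Depth limits PFKFB2, PFKM, ENO2, PFKFB4 and PDK3, which had as few as 0 to 18 counts in a library, and HK3, which could not be tested.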
